A study of Rattus norvegicus with 24 samples.

Results

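The endoplasmic reticulum folding genes and the sensors and targets of the unfolded protein response were followed in rat thyroid glands with and without acrylamide. The set names 33 genes. A probe carrying the gene's name was found for 31 of them, and all 31 passed the filter on dim probes among 20286 genes tested. Edem1 had no probe of that name, and Sesn2 was found only through its RefSeq accession, so its values are given apart from the counts. By role the 31 genes are 16 of folding and translocation, 5 of ER-associated degradation, 5 sensors and transcription factors and 5 targets of ATF4 and CHOP.

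The glands came from RccHan Wistar rat pups aged 35 ± 3 days after birth. Acrylamide, a small reactive molecule that binds thiol groups, was given in the water, from day 6 of gestation up to that age, at a daily 3 mg per kg of body weight. Controls drank tap water. Each of the 6 groups has 4 arrays with 1 sample each: control and acrylamide females at night (10 PM), control and acrylamide males at night, and control and acrylamide females in the morning (10 AM). The whole gland was taken, so in these bulk samples fewer cells of a type and less RNA per cell cannot be told apart.

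The thyroid follicular cell makes thyroglobulin (Tg), a very large glycoprotein rich in disulfide bonds, in the endoplasmic reticulum (ER), where chaperones such as BiP (Hspa5) and GRP94 (Hsp90b1), the lectins calreticulin and calnexin and the protein disulfide isomerases fold it for secretion. When unfolded proteins gather there, 3 membrane sensors respond: ATF6 is cleaved to a transcription factor, IRE1 (Ern1) splices the Xbp1 message, and PERK (Eif2ak3) slows translation and raises ATF4. ATF6 and XBP1 raise chaperones and degradation genes, while ATF4 and CHOP (Ddit3) raise genes of amino acid supply and stress.

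The folding genes and the ATF4 targets also differ in their promoter letters. The RefSeq promoter table of the GRCr8 build holds windows of 300 bases (250 before the start of a gene and 50 after it) for 27 of the 33 genes. Pdia3, Pdia6, Manf, Derl1, Ern1 and Atf6 have no entry. The ER stress response element (ERSE, CCAAT and CCACG with 9 bases of any kind between them, known to be bound by ATF6 with NF-Y) was searched on both strands. It stood in 6 of 13 folding promoters (46.2%), in Derl3 and in Xbp1, in 0 of 6 promoters of ATF4 targets, and in 22 of all 33469 windows (0.0657%). Here and for the elements below, the set was counted by gene and the whole table by window, so the shares differ in unit. Pdia4 and Sdf2l1, whose night values are also given below, have a promoter entry without the element. The letters are shown for 6 genes of the set that hold it, with the element in capitals and 8 flanking bases on each side.
Hspa5: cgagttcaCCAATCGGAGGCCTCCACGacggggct
Dnajc3: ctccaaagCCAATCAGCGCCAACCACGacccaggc
Creld2: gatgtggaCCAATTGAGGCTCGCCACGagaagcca
Derl3: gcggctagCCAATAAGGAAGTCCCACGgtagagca
Hsp90b1: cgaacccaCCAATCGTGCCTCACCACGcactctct
Xbp1: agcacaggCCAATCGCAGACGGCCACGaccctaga
They lie at chr3:38452965-38452999 (plus strand) for Hspa5, chr15:102432526-102432560 (plus) for Dnajc3, chr7:121789231-121789265 (minus) for Creld2, chr20:12766593-12766627 (plus) for Derl3, chr7:23012339-23012373 (plus) for Hsp90b1 and chr14:84604550-84604584 (plus) for Xbp1. Hsp90b1 holds the element once more, and Calr and Canx hold it once each.

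A related element, ERSE-II (ATTGG, 1 base of any kind and CCACG, on either strand), stood in Hyou1, Dnajb11 and Herpud1 and in 17 of all windows (0.0508%). The Hyou1 promoter holds it on 2 sites, and 1 of these overlaps the core of the unfolded protein response element (TGACGTGG), which Hyou1 alone of the 27 carries (0.595% of all windows). The ATF4 element (CARE, TGATGNAA) stood in Chac1, Trib3 and Herpud1 and in 3.98% of all windows. 1 ERSE-II site of Hyou1, not the one that overlaps the core, and the CARE sites of Chac1 and Trib3 are shown.
Hyou1: acgtccccATTGGGCCACGtagaagac
Chac1: agcaggagTGATGCAAcggcggag
Trib3: cgcccggcTGATGTAAacctgagc
These lie at chr8:53602786-53602812 (minus), chr3:126795956-126795979 (minus) and chr3:161275539-161275562 (plus). The letters describe the windows and measure no binding.

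Between 71.5% and 82.3% of the spots on an array were well above background. Controls at night occupied row 1 of a slide and treated samples row 2, and the effects of row and treatment cannot be told apart there. The 13 thyroid follicular markers had mean levels of 1.22 to 2.81 on 23 arrays. Acrylamide replicate 1 of females in the morning stood at -3.37 on that measure and at -0.85 for Tg. It also stood low in parathyroid markers (-5.28) and C cell markers (-2.66) and its morning group is therefore also described without it. Levels are log2 signals with each array's 75th percentile set to 0, differences are acrylamide minus control on that log2 scale, SE is the standard error of the fit, and the threshold is an adjusted p under 0.05 in limma over all genes tested.

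At night every folding gene had a higher mean level with acrylamide, in both sexes. In females at night the difference was above 0 for 16 of 16 folding genes, with a median of 0.45 against 0.02 over all genes. Males at night had 16 of 16 above 0, with a median of 0.66 against 0.00. The ATF4 and CHOP targets had medians of -0.10 in females and -0.23 in males, with 1 of 5 above 0 in each. Of all genes, 33.9% had a difference above 0 in both sexes at night, against 23 of the 31 described here, 16 of them folding genes.

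No single gene passed the threshold in either night comparison, neither among the 31 nor among all 20286 (0%). At an unadjusted p under 0.05 in limma stood 380 genes (1.87%) in females and 2762 (13.6%) in males, and among the 31 there were 2 and 10, all higher with acrylamide. The spread behind these p-values is estimated from all 6 groups together, which the morning acrylamide array low in Tg widens for genes such as Derl3. Another measure uses the night arrays alone: whether the 4 acrylamide arrays all lie above the 4 controls. That held in females for 7 of the 31 genes, against 3.73% of all genes, and in males for 10 of the 31, against 2.99%. The same 7 genes, Hspa5, Pdia4, Pdia6, Dnajc3, Hyou1, Creld2 and Derl3, were separated in both sexes, against 0.537% of all genes, and none of the 31 was separated as lower in both, against 0.0838%. Dnajb11, Sdf2l1 and Manf were separated in males and overlapped in females. Without control replicate 4 of females at night, the highest control for many of these genes, the female count was 14, against 6.32% of all genes.

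**Figure D1:**
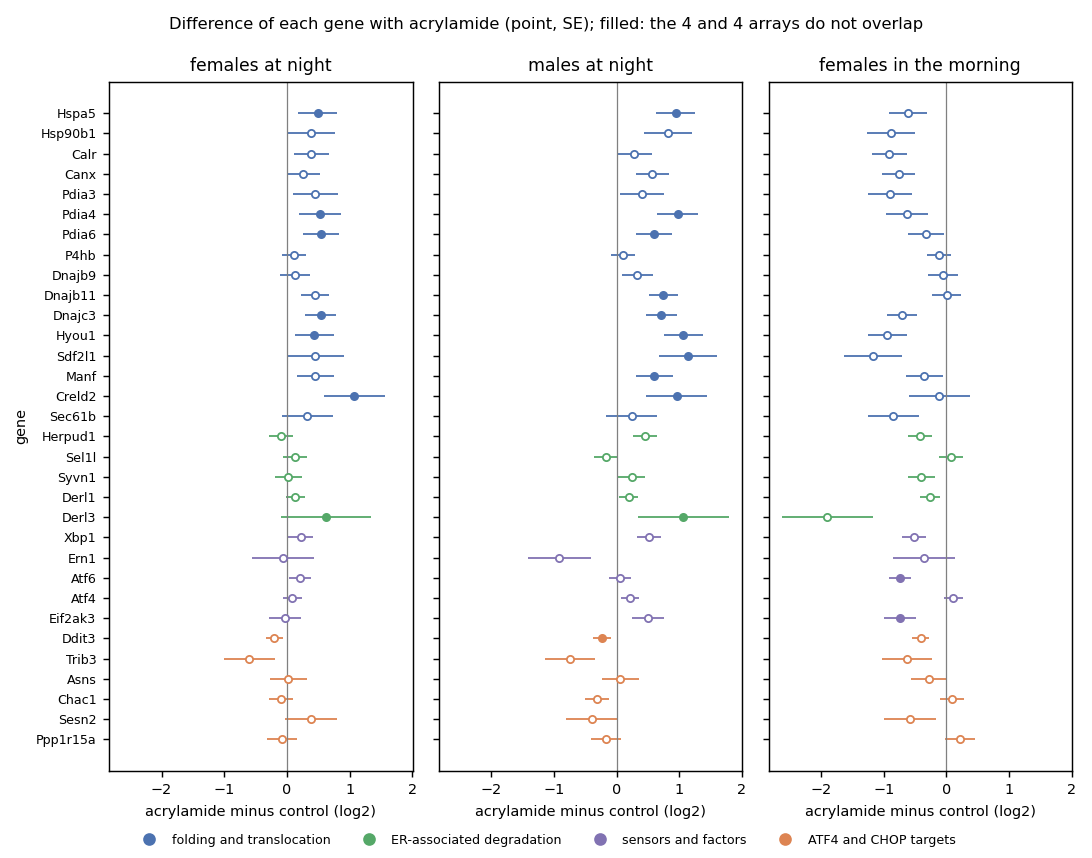
Difference between acrylamide and control (x axis, log2) for each gene (y axis) in the 3 strata, with the SE of the limma fit, colours by role and filled points where the 4 and 4 arrays do not overlap; Sesn2 is the probe matched by accession. All 16 folding genes lie right of 0 at night and all but Dnajb11 lie left of 0 in the morning.

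Hspa5 encodes BiP, the main Hsp70 chaperone of the ER and the protein that holds the 3 sensors inactive. Its probe lies at chromosome 3, 13787739 to 13787798 in the rn4 build. In females at night the level of Hspa5 was 5.34, 5.25, 5.39 and 5.68 on the control arrays and 6.06, 5.71, 5.89 and 5.96 on the acrylamide arrays. In males at night Hspa5 read 5.47, 5.74, 5.63 and 5.32 in controls and 6.29, 6.73, 6.07 and 6.85 with acrylamide. The groups overlap in neither sex. The difference was 0.49 (SE 0.31, 1.40-fold, adjusted p = 1 in limma) in females and 0.94 (SE 0.31, 1.92-fold, adjusted p = 0.353) in males.

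Hsp90b1, the ER form of the Hsp90 chaperones, had overlapping groups. Female controls at night read 3.81, 4.06, 3.88 and 4.28 for Hsp90b1 and acrylamide females 4.86, 3.88, 4.22 and 4.62. Male controls at night read 4.15, 3.94, 4.46 and 3.56 against 4.69, 5.14, 4.24 and 5.35. In females 2 acrylamide arrays lie within the control range, and in males 1 does. The differences were 0.39 (SE 0.39) and 0.82 (SE 0.39).

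Creld2, an ER protein with disulfide isomerase motifs, had the largest folding difference in females. Its levels there were 1.11, 1.53, 1.61 and 2.10 in controls against 2.74, 2.32, 2.66 and 2.91 (difference 1.07, SE 0.49), and in males at night 2.11, 1.92, 2.13 and 1.66 against 3.15, 2.33, 3.08 and 3.09 (0.96, SE 0.49). The lowest acrylamide array lies above the highest control in each sex. Dnajc3, the co-chaperone p58IPK that also inhibits PERK, read 1.76, 1.86, 1.88 and 2.01 in female controls at night and 2.57, 2.42, 2.43 and 2.24 with acrylamide (0.54, SE 0.25). In males its control arrays read 1.90, 1.86, 2.08 and 2.08 and its acrylamide arrays 2.43, 2.80, 2.54 and 2.99 (0.71, SE 0.25). Its 4 values in each night group lie close together, and the groups are apart.

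Hyou1, the large ER chaperone GRP170 that exchanges nucleotide on BiP, stood next to Sdf2l1 in the size of its male difference. Male controls read 3.27, 3.43, 3.02 and 2.90 for Hyou1 and acrylamide males 3.95, 4.46, 3.74 and 4.74 (1.07, SE 0.31, 2.09-fold, adjusted p = 0.353 in limma). In females at night it read 3.16, 3.14, 3.16 and 3.54 against 3.82, 3.63, 3.58 and 3.71 (0.44, SE 0.31). The female groups are separate only narrowly, because control replicate 4 stands near the lowest acrylamide array. Dnajb11, a J protein that works with BiP, read 1.29, 1.43, 1.61 and 1.05 in male controls and 1.84, 2.22, 1.75 and 2.55 with acrylamide (0.74, SE 0.23). In females at night it overlapped, with 0.94, 1.18, 1.12 and 1.46 against 1.73, 1.38, 1.58 and 1.79 (0.45, SE 0.23).

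Among the disulfide isomerases the night differences ranged widely. Pdia4 read -0.30, 0.23, 0.02 and 0.12 in female controls at night and 0.66, 0.41, 0.43 and 0.70 with acrylamide (0.53, SE 0.33), and in males 0.25, 0.22, 0.15 and 0.33 against 1.19, 0.76, 1.1 and 1.79 (0.97, SE 0.33). Pdia6 differed by 0.54 (SE 0.29) and 0.60 (SE 0.29) with no overlap in either sex. Pdia3, which acts on glycoproteins together with the lectin chaperones, differed by 0.46 (SE 0.35) and 0.41 (SE 0.35) with overlapping arrays. P4hb, the classical protein disulfide isomerase, differed least in males of all folding genes (0.10, SE 0.19) and by 0.11 (SE 0.19) in females.

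The lectins overlapped in both sexes at night: Calr, calreticulin, differed by 0.39 (SE 0.28) in females and 0.28 (SE 0.28) in males, and Canx, calnexin, by 0.26 (SE 0.26) and 0.57 (SE 0.26). Sdf2l1, an ER protein found with BiP and J proteins, differed by 0.45 (SE 0.46) and 1.14 (SE 0.46), and its other probe by 0.54 and 1.18. Manf, a secreted ER stress factor, differed by 0.45 (SE 0.30) and 0.60 (SE 0.30). Dnajb9, an ER J protein, stood at 0.12 (SE 0.24) and 0.33 (SE 0.24), and Sec61b, a subunit of the translocation channel, at 0.32 (SE 0.41) and 0.24 (SE 0.41). The arrays of the groups overlapped in both sexes for these last 2 genes.

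Acrylamide males 2 and 4, which stood apart in tissue markers as the values beside Ern1 show, were the highest males for several chaperones. Without them and the morning array low in Tg, the male difference was 0.69 (SE 0.19) for Hyou1, 0.64 for Hspa5, 0.93 for Sdf2l1, 0.45 (SE 0.24) for Dnajb11, 0.43 (SE 0.32) for Hsp90b1, 0.23 (SE 0.19) for Xbp1 and -0.60 for Sec61b. The folding median was 0.60 there, none of the 31 passed in limma, and the 2 acrylamide males left lay above all 4 controls in 13 of the 31 genes, against 7.89% of all genes.

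**Figure D2:**
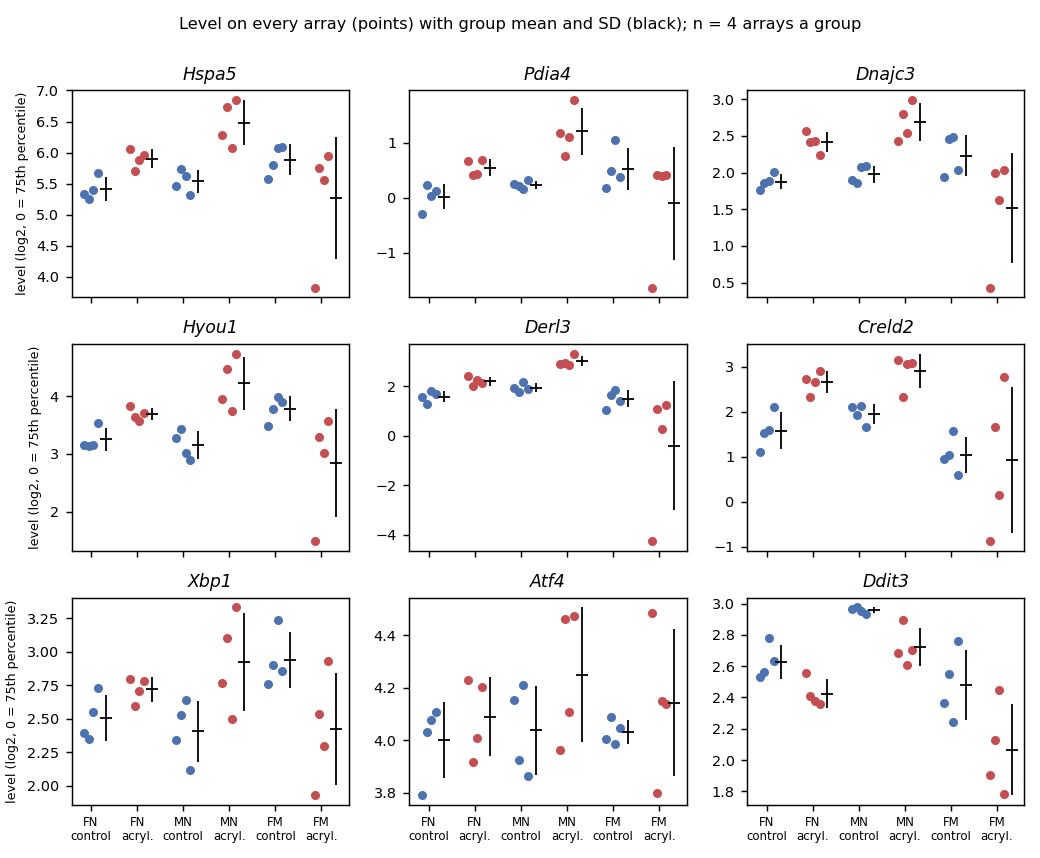
Levels (y axis, log2, 75th percentile of the array at 0) of 9 genes on each of the 24 arrays by group (x axis; F and M are females and males, N and M night and morning), with the mean and SD of the 4 arrays in black. At night the acrylamide points of Hspa5, Pdia4, Dnajc3, Hyou1, Derl3 and Creld2 lie above the control points. In the morning acrylamide replicate 1 is the lowest of its group for these genes. It stands far below the rest of the group except for Creld2, where replicate 3 is also low (0.16).

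Of the 5 degradation genes, Derl3 stood with the chaperones. Derl3 encodes a derlin of the channel that returns misfolded proteins to the cytosol. Its levels were 1.57, 1.27, 1.82 and 1.68 in female controls at night against 2.43, 2.01, 2.25 and 2.13 with acrylamide, and 1.95, 1.79, 2.18 and 1.89 in male controls against 2.91, 2.96, 2.87 and 3.33. Neither sex overlaps, and the other Derl3 probe differed in the same direction (1.05 and 0.64). The differences of the probe with the higher mean were 0.62 (SE 0.72) and 1.07 (SE 0.72), the SE carrying the wide spread of the morning arrays. The other 4 genes overlapped in both sexes. Herpud1, a ubiquitin-like ER protein, stood at -0.10 (SE 0.19) in females and 0.45 (SE 0.19) in males, and Derl1 at 0.14 (SE 0.16) and 0.19 (SE 0.16). The ubiquitin ligase Syvn1 stood at 0.02 (SE 0.21) and 0.24 (SE 0.21), and its partner Sel1l at 0.13 (SE 0.20) and -0.17 (SE 0.20).

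Of the 5 sensors and factors, 3 lay above 0 in females and 4 in males at night, and none was separated. Xbp1, whose message IRE1 splices (spliced and unspliced forms were not told apart here), read 2.39, 2.35, 2.55 and 2.73 in female controls at night and 2.80, 2.59, 2.71 and 2.78 with acrylamide (0.22, SE 0.20). Male controls at night read 2.34, 2.53, 2.64 and 2.11 for Xbp1 and acrylamide males 2.76, 3.10, 2.50 and 3.33 (0.52, SE 0.20). Both pairs of groups overlap. Atf6 read 0.82, 0.48, 0.11 and 0.61 against 0.89, 0.90, 0.63 and 0.45 in females (0.21, SE 0.18), and 0.34, 0.27, 0.12 and 0.87 against 0.69, 0.22, 0.38 and 0.53 in males (0.05, SE 0.18). The other Atf6 probe gave 0.85 in females and -0.37 in males, so the male value has no settled sign.

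Ern1, the gene of IRE1, read -4.62, -4.65, -4.09 and -5.37 in female controls at night and -4.79, -3.99, -4.61 and -5.61 with acrylamide (-0.06, SE 0.50). In males Ern1 read -4.86, -4.95, -5.10 and -3.86 against -4.73, -7.45, -4.41 and -5.83 (-0.91, SE 0.50), and 3 of the 4 acrylamide arrays were well above background. Eif2ak3, the gene of PERK, read -0.97, -0.96, -0.79 and -0.79 in female controls and -0.76, -0.89, -1.01 and -0.98 with acrylamide (-0.03, SE 0.26). Its male arrays read -1.20, -1.03, -1.06 and -1.39 against -1.13, -0.25, -1.25 and -0.07 (0.49, SE 0.26). In males, acrylamide replicates 2 and 4 were low for Ern1 and high for Eif2ak3, and the same arrays stood apart in their tissue markers, with the lowest muscle mean (1.23) on replicate 2 and the lowest parathyroid mean (-1.74) on replicate 4. Without them the Eif2ak3 difference was -0.02 and the Ern1 difference 0.12. Atf4 read 3.79, 4.03, 4.08 and 4.11 against 4.23, 3.92, 4.01 and 4.20 in females at night (0.09, SE 0.15), and 4.15, 3.93, 4.21 and 3.86 against 3.96, 4.46, 4.11 and 4.47 in males (0.21, SE 0.15).

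The 5 counted targets of ATF4 and CHOP pointed the other way from the chaperones or stood near 0, and none passed the threshold. Further genes of this response, given below, went both ways. Ddit3, the gene of CHOP, read 2.53, 2.56, 2.78 and 2.64 in female controls at night against 2.56, 2.41, 2.38 and 2.36 (-0.20, SE 0.14). In males it read 2.97, 2.98, 2.95 and 2.93 against 2.69, 2.89, 2.61 and 2.70 (-0.23, SE 0.14), with all 4 acrylamide arrays below all controls, which 1.47% of all genes showed. Trib3, a pseudokinase induced by CHOP, read -2.33, -2.18, -2.93 and -2.58 against -3.26, -2.78, -2.52 and -3.85 in females (-0.60, SE 0.40). In males Trib3 read -2.28, -1.51, -3.16 and -2.17 against -3.69, -2.68, -2.32 and -3.41 (-0.74, SE 0.40). Both Trib3 comparisons overlap. Chac1, a glutathione-degrading enzyme, read -1.18, -1.35, -1.26 and -1.40 in female controls and -1.40, -1.26, -1.50 and -1.42 with acrylamide (-0.10, SE 0.19), and in males differed by -0.31 (SE 0.19). Asns, asparagine synthetase, stood at 0.02 (SE 0.29) and 0.06 (SE 0.29), and Ppp1r15a, the phosphatase subunit GADD34, at -0.08 (SE 0.24) and -0.17 (SE 0.24). The Sesn2 probe gave 0.38 (SE 0.42) in females and -0.40 (SE 0.42) in males.

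The mean of the 2 night differences was fitted after the data had been seen. With all 24 arrays none of the 31 genes passed in limma, as in the whole table (0%), with 12 of the 31 higher and 2 lower at an unadjusted p under 0.05 against 12.3% of all genes in either direction. Its value was above 0 for 25 of the 31, against 52.4% of all genes. In a fit to the 16 night arrays alone 7 genes passed as higher, against 0.0986% of all genes: Derl3 (0.84, SE 0.11, adjusted p = 0.00708), Pdia6 (0.57, SE 0.08, 0.0164), Dnajc3 (0.62, SE 0.09, 0.0277), Creld2 (1.01, SE 0.16, 0.0357), Hspa5 (0.72, SE 0.12, 0.0467), Pdia4 (0.75, SE 0.13, 0.0467) and Sdf2l1 (0.80, SE 0.14, 0.0496). Leaving out acrylamide replicate 1 of females in the morning, an array of no night group that enters only the pooled spread, 5 passed against 0.0641%: Derl3, Dnajc3, Hspa5, Hyou1 (0.75, SE 0.14, adjusted p = 0.0366) and Pdia4. Dnajc3, Hspa5, Derl3 and Pdia4 passed in both of these fits. None of the 31 passed as lower in either. Once the 3 arrays apart in tissue markers (that morning array and the 2 acrylamide males described above) were left out, 1 gene passed in the whole table (0.00493%). At most 1 of the 31 can therefore have passed there, and these calls depend on which arrays are kept.

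Tissue markers moved along with the night comparison. The thyroid follicular mean was 2.14 to 2.41 in female controls at night and 2.22 to 2.63 with acrylamide, and 2.01 to 2.14 in male controls against 2.33 to 2.81, without overlap in males. Skeletal muscle markers (8 tested) had a mean of 6.44 to 7.12 in female controls against 3.47 to 6.83, and 6.55 to 7.67 in male controls against 1.23 to 7.20. The muscle difference was below 0 for 8 of 8 genes in each sex, with medians of -1.35 in females and -1.77 in males. Pituitary markers (5 tested) stood at -5.07 to -3.60 in male controls and -2.07 to 1.90 with acrylamide, and at -5.18 to -3.66 in female controls against -5.24 to -0.07. All 5 were above 0 in each sex, with medians of 2.23 in females and 4.86 in males. T cell markers (7 tested) stood at -5.86 to -3.96 in female controls against -5.08 to -0.66 and at -6.16 to -2.55 in male controls against -5.89 to -2.07, with 7 of 7 above 0 in each sex and medians of 1.62 in females and 1.12 in males. Fibroblast markers (5 tested) had 0 above 0 in either sex, with medians of -0.47 and -0.27. None of these markers passed in limma. Plasma cell markers, from a cell type rich in these chaperones, stood at -2.86 to -2.55 in female controls against -3.09 to -1.93, and at -2.69 to -2.34 in male controls against -3.26 to -2.82. With the thyroid mean as a covariate the folding median was 0.40 in females and 0.52 in males, and with the muscle mean 0.37 and 0.56. The slope of the thyroid covariate leans on acrylamide replicate 1 of females in the morning (-3.37), an array of no night group. The thyroid covariate was not fitted without that array. With the thyroid covariate on all 24 arrays only Dnajc3 and Hspa5 passed for the mean of the 2 night differences. Of all genes 0.0592% passed there in either direction. The part of the pituitary, T cell and fibroblast markers in the result was not tested.

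**Figure D3:**
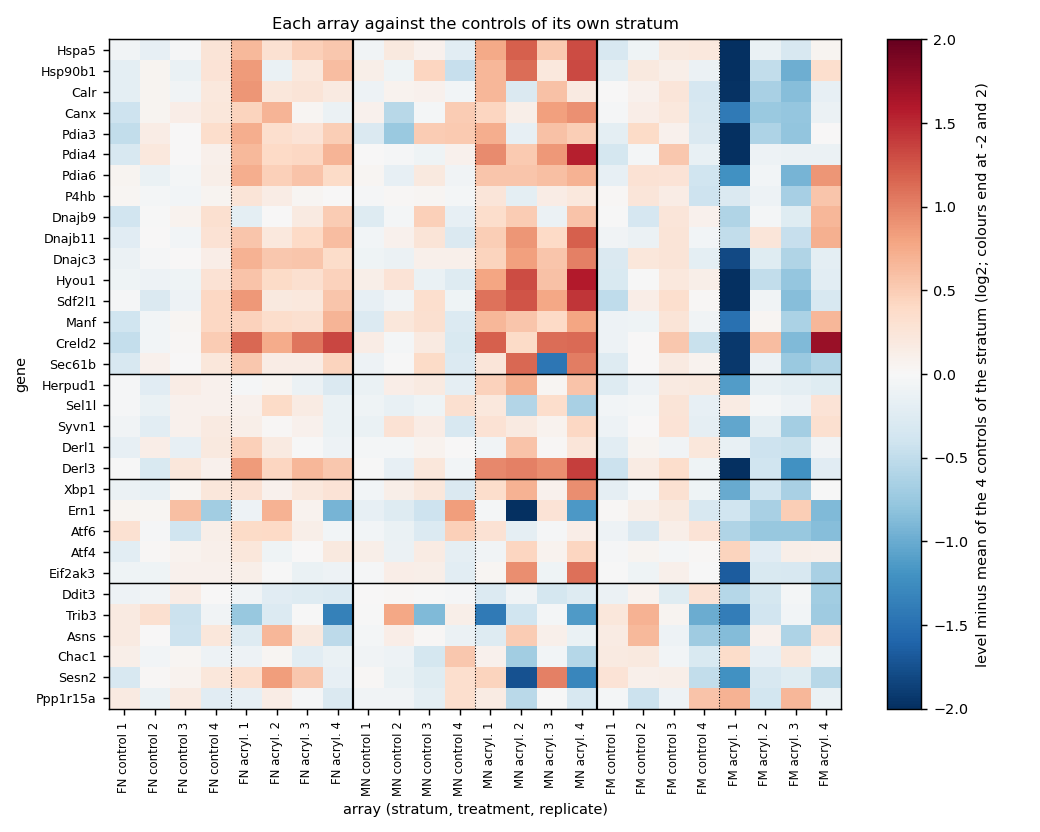
Level of each gene (y axis) on each array (x axis) minus the mean of the 4 controls of the same stratum (colour, log2, ending at -2 and 2), with lines between roles, groups and strata; Sesn2 is the probe matched by accession. The upper block of folding genes is mostly red on the acrylamide arrays at night, with some blue cells, such as Sec61b on 1 acrylamide male. It is blue on acrylamide replicate 1 of females in the morning, where acrylamide replicate 4 shows both colours.

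In females in the morning the folding genes lay below control, with a median of -0.67 against -0.11 over all genes and 15 of 16 negative. Of the 31 genes 5 were above 0, against 40.4% of all genes. Here 427 genes passed the threshold (2.1%), 339 of them lower (1.67%), and 1 of the 31 was among them, Atf6. Without acrylamide replicate 1, the array low in Tg, the folding median was -0.24. With all arrays and the thyroid mean as a covariate it was 0.01, and the slope of that covariate leans on replicate 1. Without replicate 4 the median was -0.86, and 11 of the 31 genes were lower past the threshold, against 6.25% of all genes.

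Tissue markers differed in the morning as well. The 6 tested markers of oesophageal epithelium had means of -3.36 to -2.15 in morning controls and of 1.50, -1.44, 1.88 and -3.26 on acrylamide arrays 1 to 4, so that replicate 4 lies within the control range and the other 3 above it. All 6 were above 0, with a median difference of 2.65, and 1 passed. Cartilage markers (5 tested) had 4 above 0 with a median of 1.15. The 13 thyroid markers were all below 0, with a median of -1.92 and 2 past the threshold, and the medians were -2.14 for parathyroid and -1.66 for C cell markers. The thyroid mean was -3.37, 1.44, 1.22 and 1.93 on acrylamide arrays 1 to 4, against 1.91 to 2.36 in controls. Replicate 1 was also the lowest for parathyroid (-5.28) and C cell markers (-2.66), and these medians were not taken without it. The part of the oesophageal, cartilage, parathyroid and C cell markers in the morning results was not tested.

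Atf6 fell by 0.74 (SE 0.18, adjusted p = 0.0414 in limma) in the morning, from 0.33, 0.15, 0.55 and 0.72 to -0.16, -0.32, -0.32 and -0.41. Its probe lies at chromosome 13, 86543773 to 86543832 in rn4. All 4 acrylamide arrays lie below all controls, which 6.7% of all genes showed, and the other probe differed by -0.32. Without acrylamide replicate 4, 9 of the 31 genes were separated as lower in the morning, against 11.9% of all genes, and without acrylamide replicate 1 there were 2, against 7.15%. The call is weak: in 23 of 38 alternatives Atf6 did not pass, with differences of -0.83 to -0.53 over all of them and adjusted p from 0.0294 to 0.372. Without acrylamide replicate 1 the difference was -0.78 (SE 0.19, adjusted p = 0.107). Eif2ak3 was also fully separated, reading -0.58, -0.66, -0.47 and -0.59 in controls and -2.24, -0.88, -0.90 and -1.22 with acrylamide (-0.74, SE 0.26, adjusted p = 0.105). Without acrylamide replicate 1 its difference was -0.43 (SE 0.22, adjusted p = 0.431).

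For the chaperones the morning arrays of the acrylamide group were far apart. Hspa5 read 5.57, 5.81, 6.08 and 6.10 in controls and 3.83, 5.76, 5.56 and 5.95 with acrylamide (-0.61, SE 0.31, adjusted p = 0.229), and the last 3 of these lie within or just below the control range. Hyou1 read 3.48, 3.77, 3.99 and 3.90 against 1.49, 3.30, 3.02 and 3.58 (-0.94, SE 0.31, adjusted p = 0.0895). Calr read 3.42, 3.51, 3.66 and 3.08 against 1.44, 2.77, 2.57 and 3.26 (-0.91, SE 0.28, adjusted p = 0.0777). Without replicate 1 these differences were -0.13, -0.49 and -0.55. The lowest value belongs to the same array for each of these genes, and for Calr and Hyou1 replicates 2 and 3 also lie below the control range.

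Hsp90b1 read 4.03, 4.42, 4.35 and 4.11 in morning controls against 1.83, 3.73, 3.25 and 4.56 (-0.88, SE 0.39), and Xbp1 read 2.76, 2.90, 3.24 and 2.86 against 1.93, 2.53, 2.30 and 2.93 (-0.52, SE 0.20). Ern1 read -4.29, -4.20, -4.12 and -4.64 against -4.71, -4.96, -3.82 and -5.19 (-0.36, SE 0.50). The groups overlap for all 3 genes. Of the folding genes, Sdf2l1 had the most negative value (-1.17, SE 0.46) and Dnajb11 the highest (0.00, SE 0.23). Derl3 stood at -4.27 on acrylamide replicate 1 and at 0.29 to 1.26 on the other 3, against 1.06 to 1.85 in controls (-1.90, SE 0.72). Without that array the differences were -0.38 (SE 0.30) for Hsp90b1, -0.35 (SE 0.19) for Xbp1, -0.35 (SE 0.55) for Ern1, -0.42 (SE 0.24) for Sdf2l1, 0.17 for Dnajb11 and -0.61 (SE 0.22, adjusted p = 0.242 in limma) for Derl3.

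The genes with the highest morning differences were Ppp1r15a, Atf4 and Chac1. Ppp1r15a read 1.09, 0.71, 1.04 and 1.70 in controls and 1.83, 0.77, 1.80 and 0.99 with acrylamide (0.22, SE 0.24). Atf4 read 4.0, 4.09, 3.98 and 4.05 against 4.48, 3.80, 4.15 and 4.14 (0.11, SE 0.15), and Chac1 0.26, 0.27, 0.03 and -0.23 against 0.44, -0.08, 0.30 and 0.00 (0.09, SE 0.19). All 3 overlap, and for each of them acrylamide replicate 1, lowest in its group for the chaperones above, had the highest value of its group. Without it Ppp1r15a stood at 0.05 (SE 0.25), and Atf4 and Chac1 were -0.0033 and -0.0062. Ddit3 stood at -0.41 (SE 0.14) and Trib3 at -0.63 (SE 0.40), or -0.36 and -0.39 without that array. Within slide 3 (2 acrylamide and 3 control arrays) the folding median was -0.47, and within slide 4 (2 acrylamide arrays, replicate 1 among them, and 1 control) it was -0.76.

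Whether the acrylamide difference itself changed with time or sex was tested directly. Morning minus night in females, the folding genes had a median change of -1.16 against -0.13 over all genes, negative in 16 of 16. None of the 31 and none of all genes (0%) passed in limma, with 13 of the 31 and 16.3% of all genes at an unadjusted p under 0.05. The adjusted p was 0.224 for Dnajc3 (-1.25, SE 0.35) and Atf6 (-0.95, SE 0.25), and 0.226 for Calr (-1.30, SE 0.40) and Hyou1 (-1.38, SE 0.44). Without replicate 4 of the morning acrylamide group 3 of the 31 passed as lower, against 1.04% of all genes. Without replicate 1, the array low in Tg, the folding median was -0.71 against -0.10 over all genes, negative in 15 of 16. Dnajc3 stood there at -0.89 (SE 0.22), Atf6 at -1.0 (SE 0.27), Calr at -0.94 (SE 0.30) and Hyou1 at -0.93 (SE 0.29). None of the 31 passed then, with 11 of the 31 and 9.57% of all genes at an unadjusted p under 0.05. This comparison shares its split with slide and scan session, which cannot be told apart from time of day. Males minus females at night, the folding median was 0.19 and none of the 31 or of all genes passed (0%), with 0 of the 31 and 2.2% of all genes at an unadjusted p under 0.05 and Herpud1 nearest (0.54, SE 0.27, adjusted p = 0.996). Sex at night shares its split with slide. For the mean of all 3 differences 1 gene passed in the whole table (0.00493%) and none of the 31. At an unadjusted p under 0.05 in limma stood 2 of the 31 as higher and 2 as lower, against 6.68% of all genes in either direction.

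The controls alone give the level of the machinery by time and sex. Between morning and night control females 48.6% of all genes passed the threshold (27.8% higher and 20.8% lower in the morning), the 2 times also differing in slide and scan session, and 2 of the 31 passed. At an unadjusted p under 0.05 stood 7 of the 31 and 54.2% of all genes. Chac1 rose by 1.38 (SE 0.19, 2.6-fold, adjusted p = 5.21e-06 in limma), from the night values given above to 0.26, 0.27, 0.03 and -0.23 in the morning, without overlap. P4hb was lower in the morning by -0.58 (SE 0.19, adjusted p = 0.015), reading 3.99, 3.91, 3.90 and 4.0 at night and 3.39, 3.61, 3.51 and 2.96 in the morning, and without morning control replicate 4 no gene of the 31 was lower. Without acrylamide replicate 1 in the pooled spread 7 were higher, against 28.2% of all genes, and without acrylamide replicate 4 there were 5 lower, against 21.8%. The other chaperones stood on both sides, with Sec61b at 0.95 (SE 0.41), Sdf2l1 at 0.72 (SE 0.46), Calr at -0.66 (SE 0.28) and Manf at -0.63 (SE 0.30). Between male and female controls at night 0 of the 31 and 2 genes in all (0.00986%) passed, and Ddit3 had the only unadjusted p under 0.05 among the 31 (0.33, SE 0.14), against 1.63% of all genes.

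Tg, the cargo, did not pass at night. Its probe lies at chromosome 7, 104220688 to 104220747 in rn4. Female controls at night read 8.75, 8.71, 8.76 and 8.58 for Tg and acrylamide females 8.70, 9.24, 8.67 and 8.38 (0.05, SE 1.04). Male controls at night read 8.63, 8.36, 7.95 and 9.27 and acrylamide males 8.88, 8.67, 8.92 and 8.37 (0.16, SE 1.04). The night groups overlap throughout. In the morning the probe was saturated on all 4 control arrays (6.99, 6.99, 6.77 and 7.51) and on 3 acrylamide arrays (6.48, 7.04 and 6.43), so these are bounds, and the fourth acrylamide array read -0.85. No difference in Tg is read from the morning arrays for that reason.

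On the 16 night arrays, where no Tg spot was saturated, in a fit with group means and Tg as a covariate, the slope on Tg was negative in 13 of 16 folding genes, with a median of -0.39 against 0.09 over all genes. Hsp90b1 (-0.86, SE 0.21, adjusted p = 0.0408) and Dnajb11 (-0.59, SE 0.14, adjusted p = 0.0422) passed, as 0.947% of all genes did in that direction. Chac1 passed as positive (0.62, SE 0.15, adjusted p = 0.0443; 2.84% of all genes). Among night arrays of a group, those with more Tg thus had less Hsp90b1 and Dnajb11 and more Chac1.

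Across all 24 arrays the same fit takes Tg at a bound on the 7 saturated morning arrays. Only the signs of its slopes are therefore described here, and sizes of such slopes given further below rest on these bounds. A positive slope past the threshold stood in 7 of the 31 genes (2.82% of all genes), Derl3, Sdf2l1, Pdia4 and Hspa5 among them, and a negative one in none (0.68%). These calls rest on the morning array low in Tg (acrylamide replicate 1). Without replicate 3 of that group 12 genes were positive, but the share of all genes was not counted there, so the 12 cannot be set against it. Without replicate 1, 1 gene was positive, Ppp1r15a (5.45% of all genes), and 4 were negative (2.27% of all), Hsp90b1, Dnajb11, Xbp1 and Manf. The 7 bounds remain in that fit.

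The arrays fall into separate clusters of Tg, so correlations are given over the 16 night arrays, with permutation p-values adjusted over all genes. Chac1 had r = 0.62 (permutation p = 0.0133, adjusted 0.163) and rho = 0.75 (permutation p = 0.00114, adjusted 0.031), and r = 0.43 without the 2 arrays farthest from the median of Tg, male controls 3 and 4. Ppp1r15a had r = 0.62 (permutation p = 0.00958, adjusted 0.142), rho = 0.75 (permutation p = 0.00115, adjusted 0.0311) and r = 0.57 without those arrays. Hsp90b1 had r = -0.45 (permutation p = 0.0846, adjusted 0.343), rho = -0.48 (permutation p = 0.0628, adjusted 0.234) and r = -0.36 without them. Ern1 had r = 0.50 (permutation p = 0.0578, adjusted 0.295), rho = 0.84 (permutation p = 1e-04, adjusted 0.0156) and r = 0.51 without those arrays, and its probe was well above background on 3 of the 4 acrylamide males. Sel1l had r = 0.61 (permutation p = 0.0128, adjusted 0.161), rho = 0.71 (permutation p = 0.00292, adjusted 0.0459) and r = 0.69. Chac1, Ppp1r15a, Ern1 and Sel1l were the genes of the 31 whose adjusted p for rho was under 0.05, and none was under it for r, nor for rho on the 14 arrays. For Hspa5 r was -0.19 (permutation p = 0.478, adjusted 0.71), rho -0.22 (permutation p = 0.412, adjusted 0.649) and r -0.20 without them.

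**Figure D4:**
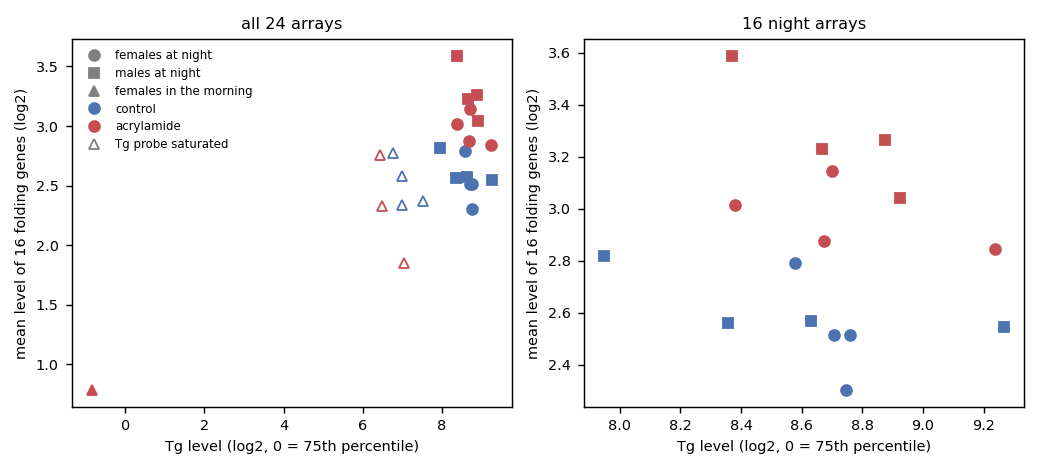
Mean level of the 16 folding genes (y axis, log2) against the level of Tg (x axis, log2) on each array, for all 24 arrays (left) and the 16 night arrays (right; the axes do not start at 0), with colours for treatment, shapes for stratum and open points where the Tg probe is saturated. The single array at a Tg of -0.85 stands apart at a folding mean of 0.79, and at night the acrylamide arrays (2.84 to 3.59) lie above the controls (2.30 to 2.82) at like levels of Tg.

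The mean level over the 16 folding genes was 2.53 ± 0.20 (SD, n = 4) in female controls at night and 2.97 ± 0.14 with acrylamide. Male controls at night stood at 2.62 ± 0.13 and acrylamide males at 3.28 ± 0.23. In neither sex did these means overlap between groups. The mean over the 5 ATF4 and CHOP targets was 0.23 ± 0.09 against 0.04 ± 0.26 in females and 0.40 ± 0.21 against 0.12 ± 0.17 in males, with overlap in both sexes. In the morning the folding mean was 2.52 ± 0.20 in controls and 1.93 ± 0.85 with acrylamide.

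Other genes of the pathway, not among the 33, were read from 4 lists. Of 37 tested genes of ER folding and secretion (glycosylation, signal peptide processing, translocation, export), 36 had a difference above 0 in females at night and 30 in males, against 55.7% and 50.5% of all genes. Their arrays were fully separated as higher in 11 and 6 genes, against 3.73% and 2.99% of all genes, and none passed the threshold. In the morning 6 of the 37 were above 0, against 40.4% of all genes. Lower past the threshold was 1 of the 37, against 1.67% of all genes: Sil1, a nucleotide exchange factor of BiP (-1.09, SE 0.28, adjusted p = 0.0447 in limma). Without acrylamide replicate 1 the Sil1 difference was -0.66 (SE 0.17, adjusted p = 0.109). For the mean of the 2 night differences, Spcs3, a signal peptidase subunit (0.75, SE 0.27), and Ssr1, a subunit of the translocon-associated complex (0.54, SE 0.29), stood highest in this list.

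Of 10 further degradation genes, 7 were above 0 in females at night and 5 in males, and of 12 further signalling genes 7 and 9. Of all genes 55.7% and 50.5% were. None passed at night. In the morning 1 of the 12 signalling genes passed as lower, against 1.67% of all genes: Tmbim6, the ER protein BAX inhibitor 1 (-0.77, SE 0.20, adjusted p = 0.0447 in limma). Without acrylamide replicate 1 the Tmbim6 difference was -0.52 (SE 0.15, adjusted p = 0.165). Of 29 further genes of the ATF4 and amino acid response, 18 were above 0 in each sex at night, against 55.7% and 50.5% of all genes. Their medians were 0.14 in females and 0.07 in males, against 0.02 and 0.00 over all genes. None passed in any acrylamide comparison of a stratum, and the values went both ways: for the mean of the 2 night differences the stress factor Atf3 stood at -0.99 (SE 0.41) and Vldlr at -0.76 (SE 0.27), while the cystine transporter Slc7a11 stood at 0.89 (SE 0.52) and the folate enzyme Mthfd2 at 0.67 (SE 0.26).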

How the data were processed

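Gene expression was measured on 24 one-colour Agilent rat arrays, 4 in each of 6 groups. Per the file headers, the authors' scanner files were made with Agilent Feature Extraction 10.1.1.1 and hold background-corrected, linear signal intensities. The deposited series matrix holds log2 values of the same arrays and was used as an alternative. Here the log2 of each processed intensity was taken minus the array's 75th percentile. Spots with an outlier mark and control spots were left out (45 empty probe values). A probe had to be well above background on 3 of 4 arrays of a group, which kept 23416 of 30367, and the probe with the highest mean stood for a gene. Gene names came from RefSeq accessions for 18005 probes and otherwise from symbols, synonyms or the array's name. Probe positions are those of the array's rn4 annotation.

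A model of 6 group means was fitted over all 24 arrays with limma 3.58.1 (R 4.3.3, statmod 1.5.0; 18 residual degrees of freedom), 2-sided, with Benjamini-Hochberg adjustment over 20286 genes. The fit was tested on simulated data. Permutation p-values used 1e+05 resamples. The members and lists were chosen with earlier results of these data known. Values on every array are given for Tg, Hspa5, Hsp90b1, Xbp1, Atf6, Atf4, Ern1, Eif2ak3 and the genes with the 3 most positive and 3 most negative moderated t in each acrylamide comparison, and other genes were chosen after their values were seen. The labels do not tie replicate numbers to animals, so the p-values reflect how far these samples scatter, which may be technical. The number of arrays limits the precision.

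Alternatives were normexp (offset 50), quantile or median scaling, the series matrix, no filter, the mean of all probes, a stratum alone, array weights, slide terms, a replicate block, tissue covariates and each array left out. Night arrays lie on 2 slides, 1 per sex, and the morning arrays on 2 others of another scan session, so sex at night cannot be told apart from slide, nor time of day from slide and scan session.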

Additional observations from a re-analysis of the deposited data

Results flagged for a closer look

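In 8 of 198 combinations of a gene (the 31, Sesn2 and Tg) and a group, 1 array stood apart from the other 3 by Dixon's criterion, which chance alone gives in about 1 in 20 groups. On acrylamide replicate 1 of females in the morning Pdia4 was -1.641 (nearest other array 0.4035), Herpud1 was 2.207 (3.088) and Tg was -0.85 (6.434). Calr was 4.96 on acrylamide replicate 1 of females at night (4.332). Hyou1 was 3.538 on control replicate 4 of females at night (3.162), and Manf was 2.388 on control replicate 3 of females in the morning (2.052). In males at night Creld2 was 2.33 on acrylamide replicate 2 (3.076) and Sel1l was -2.256 on control replicate 4 (-2.651).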

How the results depend on the processing

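Under the alternatives 987 counts and medians stayed close to the value reported and 68 moved. Of the single-gene values 1478 kept direction and side of the threshold, 30 were no longer past it, 5 newly passed and 39 reversed. The cause of the changes below was not tested. The 1 gene lower in the morning (Atf6) became 0 with array weights, the series matrix, the mean of all probes, no filter, normexp, the replicate block, slide as a fixed term, the stratum alone, the thyroid covariate and without the 3 arrays apart in tissue markers. For the mean of the 2 night differences the 0 genes higher became 7 on the 16 night arrays alone, 6 with array weights and 2 with the thyroid covariate. Of all genes 0.104%, 0.33% and 0.0592% passed there in either direction. Males at night had 1 gene higher on the night arrays alone, against 0.0197% of all genes in either direction. In control females, morning against night, the 1 higher and 1 lower became 9 and 8 with array weights, 8 and 4 with the thyroid covariate, 9 and 4 without the 3 arrays apart and 2 and 4 with normexp, and 8 lower with the series matrix and 4 lower with quantile scaling. Of all genes, 64.7% passed there in either direction with array weights, 51.5% with the thyroid covariate and 55.7% without the 3 arrays apart. The share was 58.6% with normexp, 55% with the series matrix and 52.9% with quantile scaling. The 7 positive Tg slopes became 0 with array weights and with the replicate block, 15 with the other thyroid markers in place of Tg, 13 with quantile scaling, 2 on the morning arrays alone and 1, with 2 negative, on the night arrays alone. Of all genes 0.73% were positive on the morning arrays, and 2.84% positive and 0.947% negative on the night arrays. The shares with the other markers and with quantile scaling were not counted, so the 15 and 13 cannot be set against them.

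Signs reversed as follows. In males at night, Atf4 was -0.013 with array weights and -0.0042 without the 3 arrays apart, where Ern1 was 0.12 and Eif2ak3 -0.021, and Atf6 was -0.16 with the mean of all probes. In females at night with the muscle covariate Ern1 was 0.34 and Chac1 0.021. In the morning Chac1 was -0.0064 with array weights, -0.072 with the thyroid covariate and -0.0062 without the 3 arrays apart, where Atf4 was -0.0033. With the thyroid covariate Hspa5 was 0.13, Atf4 -0.031 and Ppp1r15a -0.090. The Tg slope on the night arrays, and without the 7 saturated arrays, was -0.25 for Derl3, -0.45 for Sdf2l1, -0.15 for Pdia4, 0.62 for Chac1 and 0.50 for Ppp1r15a, and Chac1 was 0.0078 with array weights and 0.018 with the replicate block.

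With each array left out in turn, the ranges were as follows. In females at night separated genes numbered 7 to 14, Ern1 ranged from -0.32 to 0.22 and Eif2ak3 from -0.081 to 0.0021. Atf6 in males ranged from -0.039 to 0.21. In the morning 0 to 11 genes passed as lower, 2 to 9 were separated, the median of the ATF4 targets ranged from -0.40 to -0.063, Atf4 from -0.0033 to 0.23 and Chac1 from -0.018 to 0.17. The change with time had 0 to 3 genes lower, the mean of the night differences 0 to 5 higher, and the control females 1 to 7 higher and 0 to 5 lower. Positive Tg slopes numbered 1 to 12 and negative ones 0 to 4, with Derl3 from -0.42 to 0.70, Sdf2l1 from -0.49 to 0.40, Pdia4 from -0.21 to 0.26, Chac1 from -0.042 to 0.45 and Ppp1r15a from -0.10 to 0.70.

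Same-numbered control and acrylamide arrays showed little joint deviation (12 correlations of -0.23 to 0.36, 3 of them over 0.1, and 2 of 12 arrays closest to their own number). The labels name no pairs, and these correlations cannot tell whether samples were paired by design. The median of all genes moved with the scaling in the comparison of morning and night controls, to 0.26 with normexp, -0.18 with quantile scaling and -0.28 with the series matrix. The Tg probe was saturated on 7 of 8 morning arrays, and Ern1 was well above background on 3 of 4 arrays of acrylamide males, which limits both, and every Tg slope that uses morning arrays rests on bounds.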

Other observations

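Outside the 33 genes, 13 named genes hold the ER stress response element in the same promoter window, and 10 of them were tested. Their median for the mean of the 2 night differences was 0.12. Of the 10, 3 were above 0 in both sexes (33.9% of all genes) and 0 were separated as higher in both (0.537%). Among them, Ero1b, an oxidase that recharges the disulfide isomerases, stood at 0.27 and Zfand2a, a stress-induced zinc finger protein, at 0.33, while Pan2, a subunit of a deadenylase, stood at -0.20. The 8 genes of the set that hold the element had a median of 0.62, with 8 of 8 above 0 in both sexes and 4 separated in both. Within the folding genes, the 8 with this element or ERSE-II had a median of 0.62 (0.34 to 1.01) and the 5 with a promoter entry and neither element 0.28 (0.11 to 0.80). The set was chosen as known targets of this response, so the element in its promoters is no independent support for the difference.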
